A study of Homo sapiens with 10 samples.

Results

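Eph receptors are the largest family of receptor tyrosine kinases, and ephrins are their ligands, which are themselves held on the surface of neighbouring cells. Ephrin-A proteins are attached by a lipid anchor and mostly bind EphA receptors. Ephrin-B proteins span the membrane and mostly bind EphB receptors. Contact sends a forward signal through the receptor and a reverse signal through the ephrin, and the outcome is usually a change in adhesion, repulsion or the position of cells within a tissue. In the mammary gland and other epithelia they help to sort cell layers and set cell boundaries.

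The 10 genes described here were taken by symbol from the family of 22: the ligands EFNA1, EFNA5, EFNB1 and EFNB2, and the receptors EPHA1, EPHA2, EPHA4, EPHB2, EPHB3 and EPHB4. All 10 had a row in both deposited tables, of 26256 and 55736 rows, and all 10 passed the filter on low counts in both experiments. MCF10A is a nontransformed, immortalized human mammary epithelial cell line grown with EGF, insulin, hydrocortisone, cholera toxin and horse serum. G12V cells are MCF10A cells transduced with the oncogenic HRas V12 together with a GFP vector and selected with hygromycin. They are a population that resumed growth after a period of arrest, and no source used here calls them a clone. In the first experiment 2 untreated MCF10A libraries were compared with 2 untreated G12V libraries. In the second, 3 libraries of parental MCF10A cells given 10 µM Nutlin-3a for 4 h were compared with 3 given the DMSO vehicle. Nutlin-3a stabilises p53 by blocking its binding to MDM2.

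The libraries held 15453226 to 23683975 counted reads. The labels were checked on genes that should respond. HRAS rose in G12V cells by 3.05 ± 0.23 on the log2 scale (SE, adjusted p = 0.00165, quasi-likelihood test of edgeR, Benjamini-Hochberg method). MDM2 and CDKN1A, 2 direct p53 targets, rose with Nutlin-3a by 2.54 and 2.16 on the log2 scale. Epithelial markers were present in every group, but the summed level of the 8 was between 6736.5 and 8201.7 CPM (read counts scaled to library size) in MCF10A and between 1362.8 and 1661.6 CPM in G12V. CDH1, KRT14 and KRT17 were at 1 CPM or more in each MCF10A library and not in each G12V library, and none of the 8 was at 0. Fibroblast markers summed to between 37.5 and 64.9 CPM in MCF10A and between 53.4 and 60.1 CPM in G12V. Endothelial markers summed to at most 33.0 CPM and immune markers, mostly CD14, to at most 39.6 CPM in either group.

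The introduction of the oncogene was accompanied by lower levels of 3 receptors and 1 ligand and a higher level of 1 receptor. EPHA1, EPHB2, EPHB3 and EFNB1 were lower in G12V cells and EPHA2 was higher. A gene was called where the adjusted p was under 0.05 and the log2 fold change exceeded 0.5 in size. By this rule 5 of the 10 genes were called, against 11.0% of the 14376 genes tested. In the upward direction 1 of 10 was called, against 5.01% of all genes, and in the downward direction 4 of 10, against 5.95%. The median size of the log2 difference was 1.08 over the 10 genes and 0.36 over all genes tested. The 2 groups did not overlap for 9 of the 10 genes, which held for 54.8% of all genes tested. The 10 genes were chosen with earlier results of these data known, so that these shares are descriptions and were not tested. The call for each of the 4 lower genes was lost in the fit without MCF10A replicate 1, as was every other call. That fit leaves 1 MCF10A library and filters the genes anew. Every direction was kept in it, with log2 differences of -6.99 for EPHA1, -2.65 for EPHB2, -5.75 for EPHB3 and -2.71 for EFNB1. In these bulk libraries fewer cells with a transcript and less of it per cell cannot be told apart. The lower sum of epithelial markers moves with these differences, and its part in them was not tested.

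**Figure D1:**
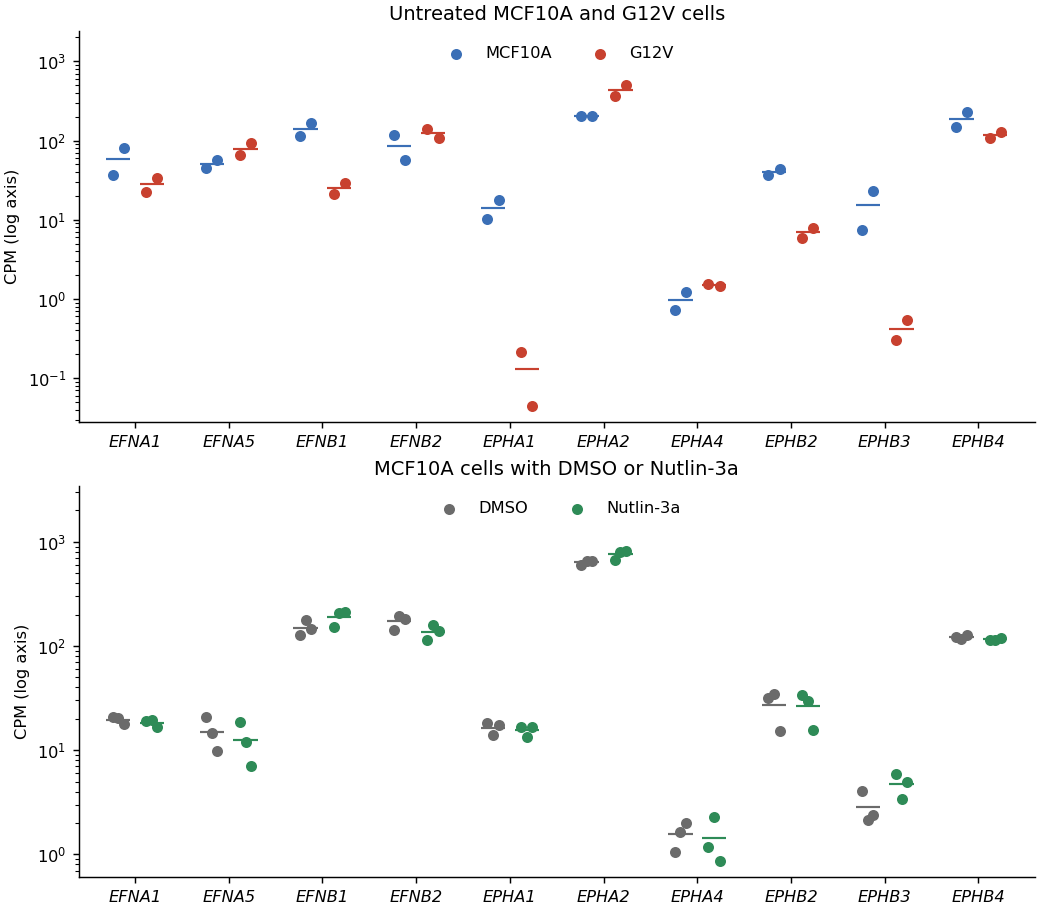
CPM of the 10 genes in each library on a log axis, with the untreated MCF10A and G12V libraries above and the DMSO and Nutlin-3a libraries below. Points are libraries and short lines are group means. EPHA1 and EPHB3 fall below 1 CPM in both G12V libraries, and EPHA2 has the highest CPM of the 10 in every library but MCF10A replicate 2, where EPHB4 is higher.

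EPHA1, the receptor for which the family was named, had the largest log2 difference of the 10 genes. It was counted at 10.3 and 17.7 CPM in the MCF10A libraries and at 0.214 and 0.0446 CPM in the G12V libraries. These values rest on 227 and 401 reads against 5 and 1 read, so the receptor was close to undetected in G12V cells. The log2 difference was -6.68 ± 0.65 (SE, adjusted p = 0.00371). From the summed reads EPHA1 was 107-fold lower, with a 95% counting interval of 49.0 to 293. This interval, like the others given here, covers counting error only. Leaving out 1 G12V library moved the log2 difference to -8.13 without replicate 1 and to -5.998 without replicate 2. The gene overlaps the antisense EPHA1-AS1 over 1080 bases, and reads of the pair cannot be told apart without strand. EPHA1-AS1 had 66 reads over the 4 libraries and a log2 difference of 0.67 (adjusted p = 0.437).

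EPHB3, a receptor for the ephrin-B ligands, was measured at 7.45 and 22.9 CPM in MCF10A and at 0.299 and 0.535 CPM in G12V. As a ratio, the MCF10A libraries differed from each other more for this gene than for the other 5 receptors among the 10 genes, yet both stood far above the G12V libraries. The log2 difference was -5.17 ± 0.71 (SE, adjusted p = 0.00965). The summed reads, 684 against 19, gave a level 36.9-fold lower, with a counting interval of 23.4 to 61.7. Leaving out MCF10A replicate 2 gave a log2 difference of -4.15, and leaving out replicate 1 gave -5.75. Parental libraries with DMSO held EPHB3 at 2.15 to 4.04 CPM, below both untreated MCF10A libraries and above both G12V libraries. The DMSO libraries were counted on a different gene model, in which the EPHB3 row lies inside that of EIF2B5. No test was made between the experiments.

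EPHB2, which binds the same ligands, was reduced but remained detectable. Its level was 36.6 and 44.1 CPM in MCF10A and 5.94 and 7.89 CPM in G12V. The replicates lay close together in each group, and the fitted level was 5.83-fold lower (log2 difference -2.54 ± 0.26, SE, adjusted p = 0.0043).

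EFNB1, the transmembrane ligand ephrin-B1, was the ligand with the highest level per length of merged exons in MCF10A cells, at 114.1 and 165.9 CPM. In G12V cells it was at 21.0 and 29.0 CPM. Both G12V libraries were thus well below both MCF10A libraries, and the fitted level was 5.59-fold lower (log2 difference -2.48 ± 0.28, SE, adjusted p = 0.0055).

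EPHA2, a receptor of epithelial cells that is also induced by Ras and ERK signalling, went the other way. It was at 205.8 and 204.9 CPM in MCF10A and at 369.6 and 501.3 CPM in G12V. The MCF10A values were nearly equal and the G12V values were both higher, giving a 2.12-fold higher fitted level (log2 difference 1.08 ± 0.23, SE, adjusted p = 0.0349). This call was the least stable of the 5. It was lost without MCF10A replicate 1, without MCF10A replicate 2 or without G12V replicate 2, with an adjusted p of up to 0.194.

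The windows of 250 bases upstream of the deposited starts of these 5 genes are shown because these are the genes that passed the test. They were read 5′ to 3′ on the strand of the gene from the hg19 (GRCh37) genome. Capitals mark the E-box CAGGTG and the GC box GGGCGG, searched on both strands, where overlapping matches run together. The EPHA1 window is chr7:143105986-143106235 on the minus strand. The EPHB2 window is chr1:23037081-23037330, the EPHB3 window chr3:184279337-184279586 and the EFNB1 window chrX:68048590-68048839, all on the plus strand. The EPHA2 window is chr1:16482583-16482832 on the minus strand.
EPHA1: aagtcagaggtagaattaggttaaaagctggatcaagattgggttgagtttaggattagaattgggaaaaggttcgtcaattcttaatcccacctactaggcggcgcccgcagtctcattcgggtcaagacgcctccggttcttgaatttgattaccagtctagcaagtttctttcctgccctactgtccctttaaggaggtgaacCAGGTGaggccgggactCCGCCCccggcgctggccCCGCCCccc
EPHB2: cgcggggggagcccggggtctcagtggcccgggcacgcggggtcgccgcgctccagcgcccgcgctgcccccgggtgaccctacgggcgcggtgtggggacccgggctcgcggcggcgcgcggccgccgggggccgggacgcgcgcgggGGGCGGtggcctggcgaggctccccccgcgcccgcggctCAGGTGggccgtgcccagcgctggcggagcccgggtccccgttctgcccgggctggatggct
EPHB3: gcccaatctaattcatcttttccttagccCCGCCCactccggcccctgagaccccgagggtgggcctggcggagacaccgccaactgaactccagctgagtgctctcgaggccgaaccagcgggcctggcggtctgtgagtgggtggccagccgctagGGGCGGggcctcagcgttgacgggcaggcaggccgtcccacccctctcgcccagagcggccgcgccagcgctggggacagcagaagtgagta
EFNB1: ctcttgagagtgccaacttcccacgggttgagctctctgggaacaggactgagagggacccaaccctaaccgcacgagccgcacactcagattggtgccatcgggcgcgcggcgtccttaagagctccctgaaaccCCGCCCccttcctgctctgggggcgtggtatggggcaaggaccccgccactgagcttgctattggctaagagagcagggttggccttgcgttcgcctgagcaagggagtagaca
EPHA2: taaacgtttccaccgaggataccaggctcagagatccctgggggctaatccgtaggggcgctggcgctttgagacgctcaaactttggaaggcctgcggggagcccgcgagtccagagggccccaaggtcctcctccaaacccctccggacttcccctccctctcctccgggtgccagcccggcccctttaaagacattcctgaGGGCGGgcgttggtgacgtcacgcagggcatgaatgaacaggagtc

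The E-box CAGGTG, a motif known to be bound by SNAI and ZEB repressors, was found in the EPHA1 window at positions -44 to -39 from the start. It was also found in the EPHB2 window at -62 to -57 and, among the genes that were not called, in the EFNB2 window at -87 to -82. No match was present in the windows of EPHB3, EFNB1 or EPHA2. Of the 14373 windows of the tested genes, 17.8% held this motif. A GC box was present in the windows of all 10 genes, against 59.6% of all windows. None of the 10 windows held the AP-1 motif TGANTCA, found in 4.48% of all windows, the ETS core CCGGAAG, found in 11.4%, or the p53 decamer, found in 4.5%. The GC content of the 10 windows ranged from 43.2% for EPHA4 to 84.8% for EPHB2, around a median of 62.8% over all windows. The deposited EPHA4 start, at base 222438922, lies upstream of the GENCODE start at base 222437024. Its window is therefore not the one beside the GENCODE start. These matches describe letters in a short window and not occupied sites, and sites further away were not searched.

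The other 5 genes did not pass the test. EPHB4, a receptor best known as the partner of ephrin-B2 in veins, was at 146.4 and 229.0 CPM in MCF10A and at 109.2 and 128.7 CPM in G12V. The groups did not overlap, but the log2 difference of -0.66 ± 0.26 had an adjusted p of 0.185. EPHA4, a receptor that binds ligands of both classes, was rare, at 0.727 and 1.23 CPM in MCF10A and 1.54 and 1.47 CPM in G12V. Its adjusted p was 0.452.

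EFNA1, a ligand of EPHA2, was at 36.9 and 81.1 CPM in MCF10A and at 22.5 and 33.7 CPM in G12V. The G12V libraries were both lower, but the spread between the MCF10A libraries was wide, and the log2 difference of -1.07 ± 0.41 had an adjusted p of 0.171. EFNA5, another ephrin-A, was at 44.9 and 56.5 CPM in MCF10A and 65.0 and 92.2 CPM in G12V. That difference, 0.63 ± 0.24 on the log2 scale, had an adjusted p of 0.169. EFNB2, the arterial ephrin-B, was at 115.9 and 56.0 CPM in MCF10A and at 140.0 and 106.8 CPM in G12V. It was the only 1 of the 10 genes whose groups overlapped, with an adjusted p of 0.443.

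**Figure D2:**
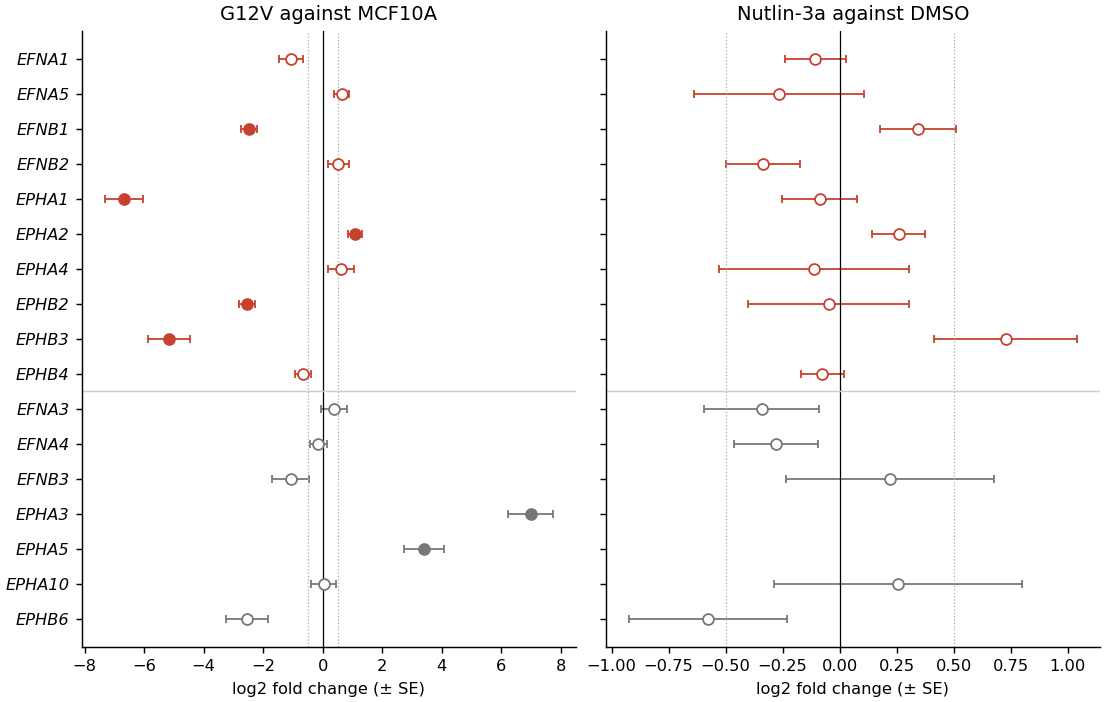
Log2 fold change with its standard error for the 10 genes (red) and for the other family genes that could be tested (grey), G12V against MCF10A on the left and Nutlin-3a against DMSO on the right. Filled points passed the test and dotted lines mark a log2 change of 0.5 in either direction. On the left EPHA1, EPHB2, EPHB3 and EFNB1 are filled below 0, and EPHA2 and the grey EPHA3 and EPHA5 are filled above 0. No point is filled on the right, and the axis on the right is narrower.

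Of the remaining 12 family genes, 7 could be tested in this comparison, and 2 of them, both EphA receptors, were higher in G12V cells. The share over all genes tested was 5.01%. These 2 genes passed the filter on low counts only through their G12V reads, so that their number cannot be weighed against that share. EPHA3 was counted at 4 and 0 reads in MCF10A and at 276 reads in each G12V library. Its level from summed reads was 135-fold higher, with a counting interval of 52.3 to 496, and its log2 difference was 6.98 ± 0.76 (SE, adjusted p = 0.00515). EPHA5 rested on 3 and 1 reads against 18 and 28 reads, a ratio of 11.2 with an interval of 4.10 to 42.9 (adjusted p = 0.0283). The call of EPHA3 was lost without MCF10A replicate 1, and that of EPHA5 without either MCF10A library or without G12V replicate 2.

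EPHB6, a receptor whose kinase is inactive, was at 0.682 and 0.925 CPM in MCF10A and 0.0428 and 0.223 CPM in G12V. Its log2 difference of -2.56 ± 0.71 was not called by the quasi-likelihood test (adjusted p = 0.0753) or by DESeq2 (adjusted p = 0.175), but it was by the exact test of edgeR (adjusted p = 0.00618). EFNA3, EFNA4, EFNB3 and EPHA10 were not called, with log2 differences of 0.37, -0.15, -1.09 and 0.03. That of EFNB3 was -0.084 without MCF10A replicate 2 and -1.81 without G12V replicate 2. EFNA3 and EFNA4 lie beside EFNA1 on chromosome 1, and the metalloprotease gene ADAM15, in the same stretch, had a log2 difference of 0.11. EFNA2, EPHA6, EPHA7, EPHA8 and EPHB1 did not pass the filter on low counts.

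Levels of different genes were set side by side only after division by gene length, as CPM per kb of merged exons (mean ± SD, n = 2 per group). In MCF10A cells EPHA2 stood at 49.6 ± 0.2, EFNB1 at 42.4 ± 11.1, EPHB4 at 29.2 ± 9.1, EFNA1 at 27.3 ± 14.4 and EFNB2 at 17.2 ± 8.5. Neighbours in this order overlapped between libraries. EFNA5 followed at 8.84 ± 1.44, below EFNB2 in both libraries, and then EPHB3, EPHB2 and EPHA1 at between 2.98 and 3.35, which overlapped one another. EPHA4 was lowest at 0.130 ± 0.047.

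In G12V cells EPHA2 stood alone at 105.2 ± 22.5. EFNB2 followed at 24.7 ± 4.7 and EPHB4 at 18.5 ± 2.1, ahead of EFNA5 at 13.7 ± 3.4 and EFNA1 at 12.98 ± 3.64, which overlapped. EFNB1 had dropped behind these to 7.58 ± 1.71. The remaining 4 receptors were all at 0.553 or less.

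As a share of the summed level of the 14 receptors, EPHA2 made up 62.5% and 50.6% in the MCF10A libraries and between 81.9% and 84.0% in the G12V libraries. EPHB4 went from between 28.6% and 36.4% to between 13.9% and 15.6%. EPHA1, EPHB2 and EPHB3 each held between 2.07% and 5.17% of the receptor level in MCF10A and under 0.438% in G12V. With the lengths of the single transcripts named in one of the tables, available for 13 receptors, the mean EPHA2 share was 49.3% in MCF10A and 78.0% in G12V, in place of 56.5% and 82.9%.

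Among the 8 ligands, EFNB1 held between 37.3% and 40.4% of the summed level in MCF10A and between 9.75% and 11.8% in G12V. EFNB2 took between 8.99% and 25.0% in MCF10A and between 28.6% and 42.8% in G12V, and EFNA5 moved from at most 8.45% to at least 17.3%. By merged exons EFNB2 was thus the ligand with the largest share in both G12V libraries, although its own level was not called different. The lengths of the single transcripts, available for 6 ligands, lack EFNB2 and could not check this. With them EFNA1 held 31.8% to 41.5% in MCF10A, which overlapped EFNB1 at 39.9% to 46.2%. In G12V EFNA1 then had the largest share of the 6, at 36.15% to 38.44%. These shares are descriptions and were not tested.

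**Figure D3:**
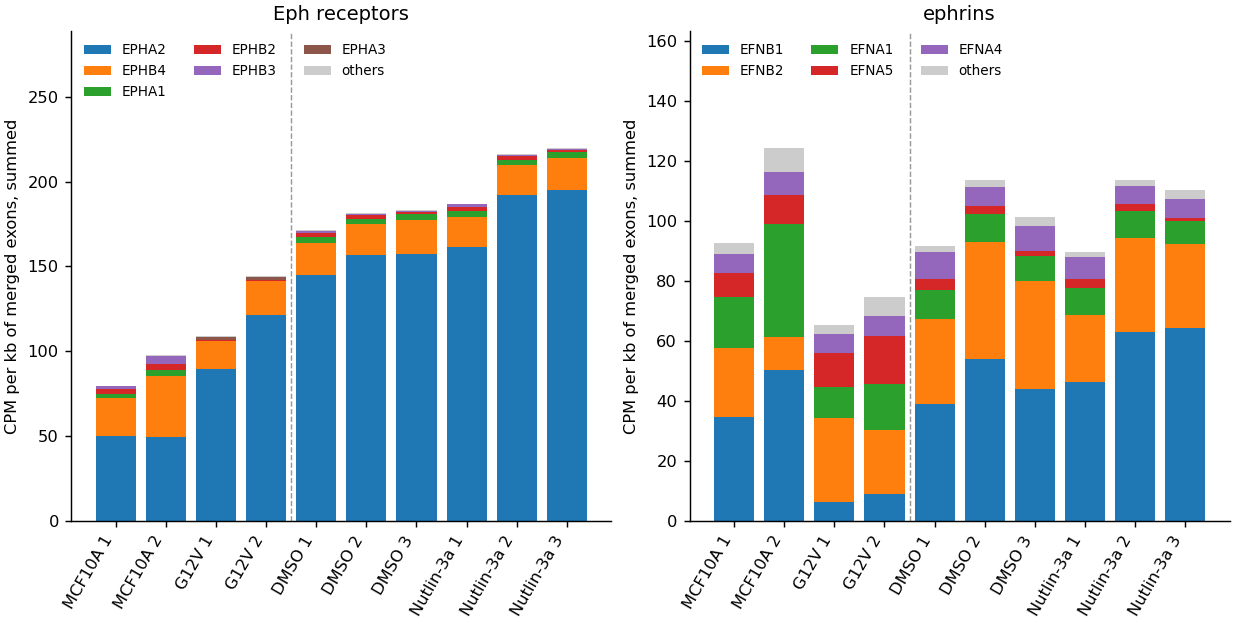
Stacked CPM per kb of merged exons in each library for the 14 Eph receptors on the left and the 8 ephrins on the right, with less abundant genes summed as others. The dashed line separates the 2 experiments, which were counted on different gene models. EPHA2 is the larger part of the receptor bar in every library, and EFNB1 shrinks in the G12V bars while EFNB2 does not.

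Genes around Eph and ephrin signalling were taken from 4 lists. The last list holds ERK pathway output and not partners of Eph receptors or ephrins. Over all genes tested, 5.01% were called higher and 5.95% lower, and the median log2 difference was -0.0011. Of 35 tested forward signalling partners, 4 were higher and 3 lower in G12V cells. VAV3 and NGEF moved in opposite directions, at -8.15 ± 0.99 and 3.09 ± 0.38 on the log2 scale. CHN1, which acts downstream of EphA4, was higher by 2.38, TIAM1 by 1.29 and the kinase ABL2 by 0.89. The adaptor GRB7 was lower, at -3.95, and so was the cofilin kinase LIMK2, at -3.43. GRB7 and VAV3 varied widely in the MCF10A libraries, at 63.5 ± 48.4 and 44.8 ± 39.3 CPM (mean ± SD, n = 2). In parental cells with DMSO, GRB7 was at 4.23 CPM and VAV3 at 2.54 CPM, against 4.10 and 0.152 CPM in G12V. LIMK2 was at 114.9 CPM with DMSO, against 16.9 CPM in G12V. The median of this list was 0.00 on the log2 scale.

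The next lists are again to be read against 11.0% of all genes called. Of 13 genes for shedding, turnover and dephosphorylation, 2 were called. The metalloprotease ADAM12 was higher by 3.10 ± 0.23, and MMP14, a membrane metalloprotease, was lower, at -1.82 ± 0.32. Of 9 reverse signalling partners of ephrin-B, GRIP1, a PDZ scaffold that binds the ephrin-B tail, was lower, at -4.37 ± 0.66, and the other 8 were not called. Of 15 genes of ERK pathway output, which include EPHA2 and EPHA4, 5 were higher and none lower, against 5.01% and 5.95% of all genes, with a median log2 difference of 0.62 against -0.0011 over all genes. Besides EPHA2 these were the phosphatase genes DUSP4 and DUSP5, at 2.22 and 2.25, the AP-1 component FOSL1, at 1.18, and the early response gene IER3, at 1.296. The log2 difference was above 0 for 12 of the 15. All of these calls were lost without MCF10A replicate 1, as for the genes above. In parental cells with DMSO, FOSL1, IER3 and EPHA2 were at 239.4, 331.3 and 633.3 CPM, above the 132.3, 272.9 and 435.4 CPM of G12V. DUSP4 and DUSP5 were at 380.6 and 65.5 CPM with DMSO, below the 685.6 and 106.7 CPM of G12V. No test was made between the 2 experiments.

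**Figure D4:**
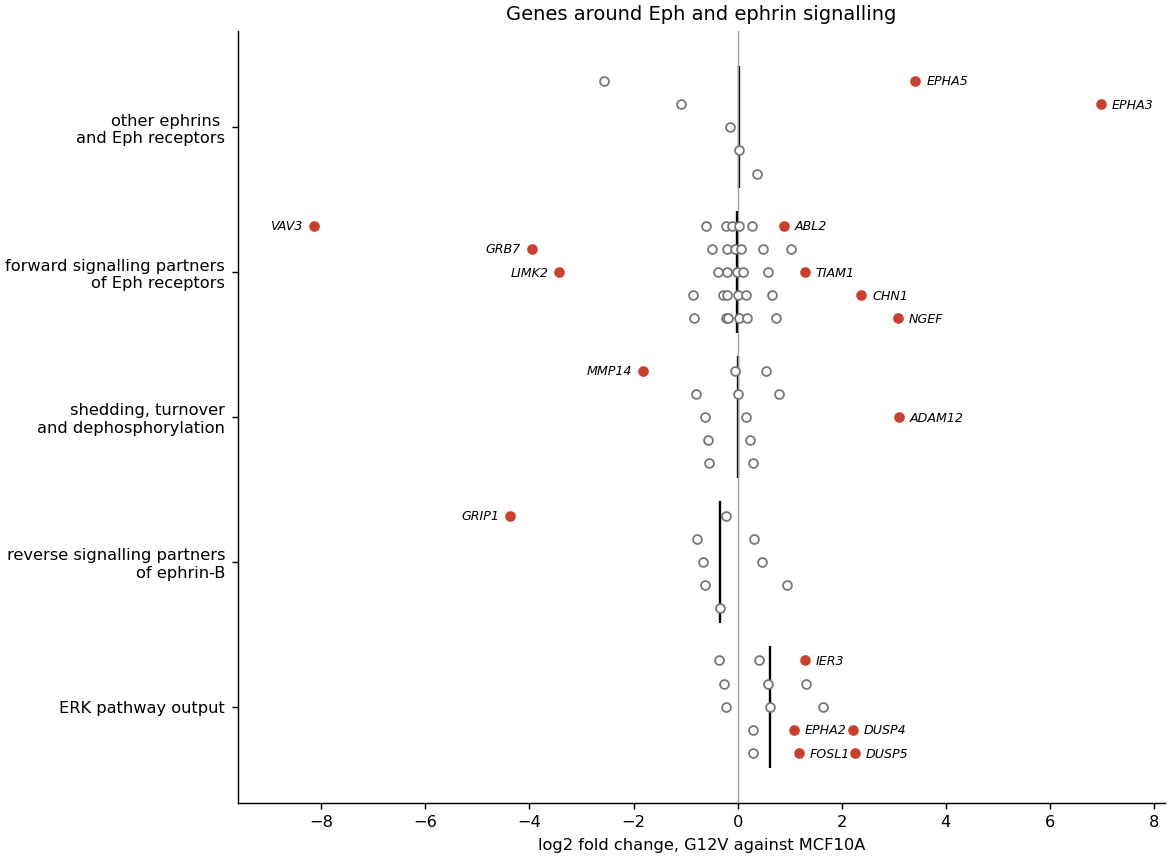
Log2 fold change in G12V against MCF10A of each tested gene in 5 lists around Eph and ephrin signalling. Filled points passed the test and carry their names, open points did not, and the vertical bar is the median of the list. The median lies near 0 for 3 lists, at -0.34 for the reverse signalling partners and at 0.62 for the ERK pathway output.

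Activation of p53 with Nutlin-3a changed none of the 10 genes past the test. By edgeR's quasi-likelihood test 0 of 10 were called, with an adjusted p of 0.9997 for each, against 0.170% of 13529 genes tested, which is 23 genes. The exact test of edgeR and DESeq2 also called 0 of 10. At an unadjusted p under 0.05 there was 1 of 10, EPHB3, against 3.42% of all genes. The groups did not overlap for 1 of 10, EPHA2, against 8.07% of all genes. The median size of the log2 difference was 0.18 over the 10 genes and 0.10 over all genes tested. A fit that blocked on the replicate number called 165 genes in all and none of the 10.

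EPHA2 was measured at 599.3, 649.8 and 650.8 CPM with DMSO and at 668.7, 796.2 and 807.8 CPM with Nutlin-3a. Each treated library was above all vehicle libraries, and the log2 difference was small, at 0.26 ± 0.12 (SE). EPHB3 was at 4.04, 2.15 and 2.39 CPM with DMSO and 5.85, 3.41 and 5.00 CPM with Nutlin-3a. The ranges overlapped, and the difference was 0.73 ± 0.31 on the log2 scale (unadjusted p = 0.048). In the table of this experiment EPHB3 lies inside the row of EIF2B5 on the same strand, so that its count is uncertain, and the setting used for such reads is not given in the sources used here. EIF2B5 itself had a log2 difference of -0.0023. EPHB4 and EPHA2 overlap SLC12A9 and RP11-276H7.2 on the opposite strand there, rows with 3861 and 51 reads over the 6 libraries.

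The ligands EFNB1 and EFNB2 were not called, with log2 differences of 0.34 ± 0.17 and -0.33 ± 0.16 (SE). EFNB1 was at 128.6, 177.9 and 144.7 CPM with DMSO and 152.4, 207.6 and 212.5 CPM with Nutlin-3a, higher in the treated library of each replicate number. EFNB2 was at 142.4, 195.6 and 181.4 CPM with DMSO and 113.2, 158.5 and 140.1 CPM with Nutlin-3a, lower in each. The 3 log2 ratios of EFNB2 lay close together, between -0.37 and -0.30, and those of EFNB1 between 0.22 and 0.55. With the replicate block EFNB2 reached an adjusted p of 0.0348, but its log2 difference of -0.34 was under the size needed for a call. The blocked adjusted p was 0.0701 for EFNB1 and for EPHB3 and 0.116 for EPHA2. The paper lists EFNB1 among its genes with real-time PCR primers. It used real-time PCR to measure the Nutlin-3a response of genes lowered by HRas with a p53 motif in lost accessible regions. Those PCR values are not used here.

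Of the other 6 genes, EFNA1, EFNA5, EPHA1 and EPHB4 were lower in the treated library of all 3 replicate numbers, with mean log2 ratios between -0.31 and -0.076. EFNA1 was at 17.9 to 20.8 CPM with DMSO and 16.5 to 19.4 CPM with Nutlin-3a, and EPHA1 at 13.9 to 18.1 and 13.3 to 16.7 CPM. EPHB4 was at 115.6 to 128.5 CPM and 113.0 to 119.8 CPM. The spread within a group exceeded the shift for EFNA5, at 9.74 to 20.8 CPM with DMSO and 7.04 to 18.5 CPM with Nutlin-3a. EPHB2, at 15.3 to 34.9 and 15.5 to 34.0 CPM, and the rare EPHA4, at 1.05 to 1.98 and 0.856 to 2.29 CPM, had no common direction across the replicate numbers.

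**Figure D5:**
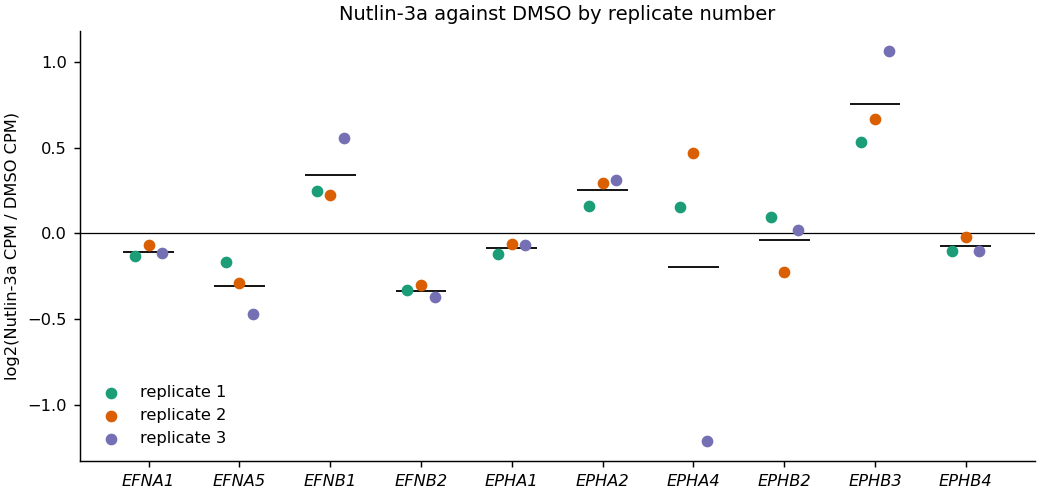
Log2 ratio of CPM in the Nutlin-3a library to CPM in the DMSO library of the same replicate number, for the 10 genes. Points are the 3 replicate numbers and lines their mean. EPHA2, EPHB3 and EFNB1 are above 0 in all 3 and EFNA1, EFNA5, EFNB2, EPHA1 and EPHB4 below 0 in all 3.

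The vehicle libraries give a second view of the receptor make-up in parental cells. EPHA2 took between 84.5% and 86.4% of the summed receptor level with DMSO and between 86.4% and 88.8% with Nutlin-3a. EFNB1 took between 42.5% and 47.4% of the ligand level with DMSO and between 51.4% and 58.3% with Nutlin-3a, and EFNB2 between 31.1% and 35.8% and between 25.2% and 27.8%. The level of EPHA2 was 152.9 ± 7.1 CPM per kb of merged exons with DMSO (n = 3), against 49.6 ± 0.2 in the untreated MCF10A libraries. The G12V level, 105.2 ± 22.5, thus lay between those of the 2 sets of parental libraries. The EPHA2 share with DMSO was above the 81.9% to 84.0% of the G12V libraries. In each DMSO library EPHA1, EPHB2, EPHB3 and EFNB1 were above both G12V libraries. EFNA1, at 17.9 to 20.8 CPM with DMSO, was below both G12V libraries, at 22.5 and 33.7 CPM. The 2 experiments were counted on different gene models, so that no test was made between them. The cause of the gap between the parental libraries was not tested. None of the genes in the 5 lists was called with Nutlin-3a. EPHA3, the receptor with the largest rise in G12V cells, had at most 3 reads in any DMSO or Nutlin-3a library and was not tested there.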

How the data were processed

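Polyadenylated RNA was sequenced from untreated MCF10A and G12V cells (2 libraries each) and from MCF10A cells given DMSO or Nutlin-3a (3 each), with groups taken from the sample labels. The authors aligned reads to hg19 with TopHat and deposited raw counts of reads per gene from HTSeq, 1 table per experiment. The annotation and strand setting are not given in the sources used here. The study calls its replicates biological, and the sources used here do not say whether they were separate cultures, so that p-values measure the spread between these libraries.

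Counts were fitted per experiment with edgeR 4.0.16 in R 4.3.3 (filterByExpr, TMM scaling, quasi-likelihood test, prior count 0.125, Benjamini-Hochberg adjustment over all genes tested). Calls needed an adjusted p under 0.05 and a log2 fold change over 0.5 in size. CPM used TMM-scaled library sizes, and lengths were merged exons of GENCODE v44lift37, available for all 22 family genes. Totals were 21538593 to 23683975 reads for MCF10A and G12V and 15453226 to 17378734 for DMSO and Nutlin-3a, and no 2 libraries were identical. Ratios from summed reads carry exact 95% counting intervals. With 2 libraries against 2, an exact permutation test of a single gene could not go below p = 0.333, and with 3 against 3 not below 0.1.

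In the Nutlin-3a experiment same-numbered libraries deviated together from their group means (correlations 0.641, 0.649 and 0.676, against -0.499 to -0.206 for other numbers). The numbers were therefore used to pair libraries in the ratios and in the replicate block, although the labels do not say that they mark a shared origin. The main fit of each experiment was left unpaired. Alternatives tried were the exact test of edgeR, DESeq2 1.42.0, other scalings, filters, a larger prior count, a replicate block, an unadjusted threshold and leaving out each library. The genes and lists were chosen with earlier results of these data known. All 10 genes are described, other family genes by whether they could be tested, and of each list every called gene up to 8. Protein sequences were not used here.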

Additional observations from a re-analysis of the deposited data

How the results depend on the processing

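For G12V against MCF10A, 2 libraries a group limit every call. Leaving out 1 library at a time gave 0 to 5 of the 10 genes called (0 to 1 higher, 0 to 4 lower), 0 to 2129 genes in all and 0 to 18 calls in the lists, with every count at 0 without MCF10A replicate 1 and the count of higher genes also at 0 without MCF10A replicate 2 or G12V replicate 2. Same-numbered libraries correlated at 0.535, and with 2 libraries a group the other pairings then give -0.535 by construction. Nothing says that the numbers mark a shared origin. With the replicate block 9 of the 10 genes were called (3 higher), 4158 genes in all and 34 in the lists. It also called EFNB3 and EPHB6 lower, with adjusted p of 0.00734 and 0.00939. An unadjusted p under 0.05 with a fold above 1.3 gave 8 (2 higher), 3676 and 29. The exact test gave 2536 genes and 25 list calls, and DESeq2 2307 genes and 25 list calls, with 5 of the 10 genes called by both.

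For Nutlin-3a, genes called numbered 88 with DESeq2, 84 with the exact test, 99 without a filter, 165 with the replicate block, 332 under the unadjusted rule and 7 to 11 leaving out 1 library. The unadjusted rule called 1 of the 10 genes, EPHB3, which was higher. The block changed no call of a family gene there.

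The sign of some differences that were not called turned when 1 library was left out, over log2 ranges of -0.198 to 0.776 for EFNA3 and -0.227 to 0.241 for EPHA10 in G12V. With Nutlin-3a the ranges were -0.664 to 0.0435 for EFNA5, -0.195 to 0.0125 for EPHA1, -0.620 to 0.148 for EPHA4, -0.336 to 0.221 for EPHB2, -0.148 to 0.720 for EFNB3 and -0.0526 to 0.705 for EPHA10. The cause was not tested.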
